A study of Mus musculus with 24 samples.

Results

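The genes described here encode the nuclear subunits of the oxidative phosphorylation complexes, measured by RNA-seq in Neuro2A cells, a mouse neuroblastoma line of wild-type genotype. They were chosen by symbol, as the rows whose names begin with Nduf and a subunit letter and number, Sdha to Sdhd, Uqcr, Cox4 to Cox8 or Atp5. Of 39253 genes listed, 89 matched, and 83 of these had at least 0.5 CPM (counts scaled to the size of the library) in at least 3 samples. Complex I has 37 of them, complex II 4, complex III 8, complex IV 17 and complex V 17. Of the 6 left out, Ndufb4b, Ndufs6b, Cox6b2, Cox8b and Cox8c had a count of 0 in all 24 samples, and Ndufa11b had 2 counts in total. The kept gene nearest to the filter was Cox6a2, whose third-highest sample had 0.906 CPM, and no gene left out had a count in more than 2.

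The study has 8 groups of 3 samples. In 6 groups the cells were transiently transfected with plasmids for RfxCas13d (an RNA-cutting CRISPR effector), HiFi-RfxCas13d (a variant of it made for higher fidelity) or DiCas7-11 (an effector of another class), each with a crRNA that targets mouse ataxin-2 mRNA (mATXN2) or with a non-targeted crRNA (NTG), and were harvested after 48 hr. The remaining groups were left untransfected or received an ataxin-2 antisense oligonucleotide (ASO), for which the labels state neither delivery nor dose. The deposited table names the control arm EV and the targeting arm G12, where the labels have NTG and G10, so the cargo of the control arm is uncertain, and the name NTG follows the labels. No sort of transfected cells is described, and in bulk RNA fewer cells with an mRNA and less of that mRNA per cell cannot be told apart.

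Oxidative phosphorylation makes ATP in the inner mitochondrial membrane. Complexes I and II pass electrons from NADH and succinate to ubiquinone, complex III passes them on to cytochrome c, and complex IV gives them to oxygen. Complexes I, III and IV pump protons, and complex V, the ATP synthase, lets the protons back through a rotating ring of c subunits to drive its F1 head. Catalytic core subunits hold the flavins, iron-sulfur clusters and hemes, and many small accessory subunits surround them. Some core subunits of complexes I, III, IV and V come from mitochondrial DNA; none of the 26 such genes and RNAs looked for had a row in the table, and they are not analysed here. Neuroblastoma cells, like other dividing cells, make ATP by glycolysis as well.

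Totals were between 12665725 and 22504999 counts per sample, with the 3 ASO samples the deepest (21874644 to 22504999). Replicates of 7 groups differed by 1.67 to 2.53 times counting noise, measured as a chi-square value per gene, and the DiCas7-11 NTG samples by 3.16 to 5.22 times. Atxn2, the targeted gene, fell by 57.8% with the ASO and by 14.8% and 13.0% with the mATXN2 crRNA of HiFi-RfxCas13d and DiCas7-11; with RfxCas13d the difference of -6.87% was not called (adjusted p = 0.178). Of 11 neuroblast and neuronal markers, 8 passed the filter, and the list summed to between 1088 and 1177 CPM; it was 1153 to 1177 CPM in untransfected cells and 1088 to 1123 CPM with the ASO, without overlap, and its part in the ASO results was not tested. Hand2 and Tubb3 were expressed, while Nefl and Nefm were at or near 0. Of 9 markers of immune, fibroblast, endothelial and glial cells, 3 passed, with a sum of 12.3 to 19.0 CPM; Aqp4 was at 0, and Ptprc, Aif1 and Col1a2 had group means of at most 0.0236 CPM. The second list was highest in untransfected cells (17.0 to 19.0 CPM) and between 12.3 and 16.6 CPM in the other groups, and its part in the results below was not tested.

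The subunit mRNAs were abundant. Per kb of transcript, the median gene of complex V had 260 CPM per kb in untransfected cells, against 137 for complex IV, 121 for complex III, 87.8 for complex II and 79.4 for complex I. Atp5b, the catalytic beta subunit of F1, was the highest at 1295 CPM per kb, followed within complex V by the c subunit genes Atp5g3 at 520 and Atp5g2 at 476 CPM per kb, with Atp5g1 at 168. The highest of complex IV was Cox4i1 at 511 CPM per kb, of complex III Uqcrb at 279, of complex II Sdhb at 245 and of complex I Ndufb9 at 208. In the isoform sets that follow, the ubiquitous form dominated. Not every tissue isoform of complex IV was this low. Cox4i2, the isoform known from lung and low oxygen, had 2.13 CPM per kb, Cox6a2 of heart and muscle had 0.738 against 158 for Cox6a1, and Cox7a1 had 2.90 against 185 for Cox7a2. Ndufa4l2, a paralog known to rise in low oxygen, had 3.97 CPM per kb against 418 for Ndufa4. Cox8a (137 CPM per kb) was the only Cox8 gene with counts.

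Short upstream sequences are shown for 6 members that changed in several comparisons, because respiratory genes are known for shared promoter motifs. RefSeq promoters (GRCm38.p6, 250 bases before to 50 after the start site) matched 67 of the 83 genes. The core of the NRF1 motif, TGCGCA, was found on either strand in 18 of them (26.9%, against 8.79% of all 27025 genes with a promoter). The ETS motif CCGGAAG was in 17 (25.4%, against 9.93%) and the YY1 motif AAGATGGC in 10 (14.9%, against 3.19%). The ETS and YY1 motifs can share their letters AAG where they abut. At least 1 of the 3 motifs was in 36 genes (53.7%, against 19.3% of all). It was in 13 of 31 genes with a promoter that fell with the ASO and in 23 of the other 36. A match is only a match of letters. The 120 bases before the start site follow, 5′ to 3′ on the strand of the gene, with matches on either strand in capitals.

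Ndufa6 and Ndufv3 (lower in every NTG arm and with the ASO), Cox6a1 (likewise), Uqcrfs1 (lower with the ASO and in 2 NTG arms), and Sdha and Sdhd (higher with the ASO) are shown in turn.
Ndufa6, chr15:82354292-82354411, minus strand: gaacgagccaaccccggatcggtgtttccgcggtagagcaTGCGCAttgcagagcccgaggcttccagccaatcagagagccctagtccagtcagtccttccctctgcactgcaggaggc
Ndufv3, chr17:31519995-31520114, plus strand: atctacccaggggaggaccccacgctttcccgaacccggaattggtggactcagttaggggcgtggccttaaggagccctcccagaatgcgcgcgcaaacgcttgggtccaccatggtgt
Cox6a1, chr5:115348959-115349078, minus strand: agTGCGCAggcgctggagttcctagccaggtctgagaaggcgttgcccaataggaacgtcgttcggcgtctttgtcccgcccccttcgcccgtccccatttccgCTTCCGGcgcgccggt
Uqcrfs1, chr13:30545317-30545436, minus strand: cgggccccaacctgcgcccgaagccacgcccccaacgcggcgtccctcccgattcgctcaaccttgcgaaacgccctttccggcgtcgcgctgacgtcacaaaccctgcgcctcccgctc
Sdha, chr13:74350241-74350360, minus strand: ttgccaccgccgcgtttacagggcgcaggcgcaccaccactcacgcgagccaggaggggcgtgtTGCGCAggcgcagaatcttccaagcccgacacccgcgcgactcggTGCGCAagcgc
Sdhd, chr9:50603850-50603969, minus strand: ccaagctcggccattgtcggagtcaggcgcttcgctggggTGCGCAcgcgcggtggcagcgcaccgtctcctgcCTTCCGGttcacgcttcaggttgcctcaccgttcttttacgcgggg

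Of these windows, those of Ndufa6, Sdha, Sdhd and Cox6a1 hold the NRF1 core, with 2 copies in Sdha, and those of Sdhd and Cox6a1 also hold the ETS letters. Neither the Ndufv3 nor the Uqcrfs1 window holds any of the 3 motifs.

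**Figure D1:**
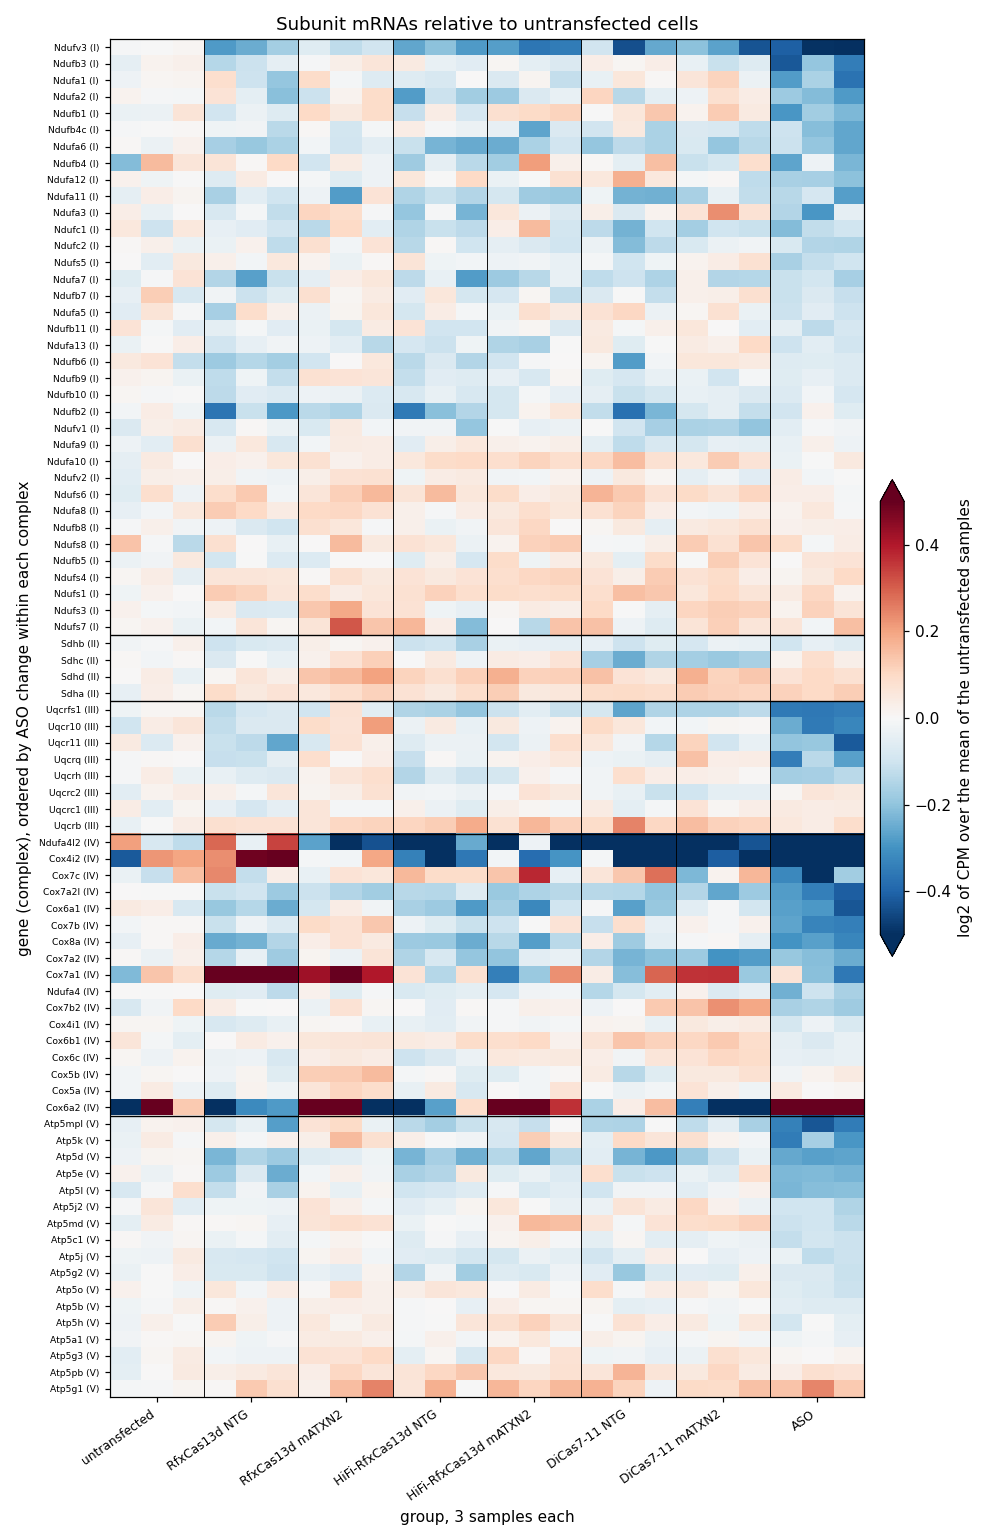
Each row is a subunit gene, with its complex in parentheses (a gene not reported here is not drawn), and each column a sample; the color is the log2 of its CPM over the mean of the untransfected samples, with values beyond 0.5 in either direction drawn at 0.5. The ASO columns are mostly blue in complexes III, IV and V, complex II is mostly red there, and Ndufa4l2, Cox4i2, Cox6a2 and Cox7a1 have few counts and vary most.

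Summed over a complex, subunit mRNA differed between groups by a few percent. Complex IV summed to 1702 ± 4.91 CPM (SD, n = 3) in untransfected cells and 1543 ± 11.5 in ASO cells, 9.39% lower. It was 1624 ± 18.5, 1632 ± 3.66 and 1654 ± 11.9 in the NTG arms of RfxCas13d, HiFi-RfxCas13d and DiCas7-11, 4.59%, 4.11% and 2.84% lower than untransfected, and in none of these 4 groups did a sample reach the lowest untransfected value of 1697 CPM. With the ASO complex III was 6.06% lower, complex I 4.29% and complex V 4.03%, again with no overlap with untransfected cells. Complex II was the exception at 2.28% higher (803 ± 8.55 against 785 ± 8.84 CPM). For the mATXN2 arm of RfxCas13d, the sum of every complex was above every untransfected sample. The sums for complexes I to V were 2805 ± 9.04, 825 ± 13.4, 926 ± 8.84, 1724 ± 0.397 and 6494 ± 28.4 CPM. No test was run on these sums; with 3 samples against 3, an exact two-sided permutation test cannot go below 0.1. They weight each gene by its level, so that Atp5b, at 2390, 2370 and 2373 CPM with the ASO against 2442, 2473 and 2530, makes up much of complex V.

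**Figure D2:**
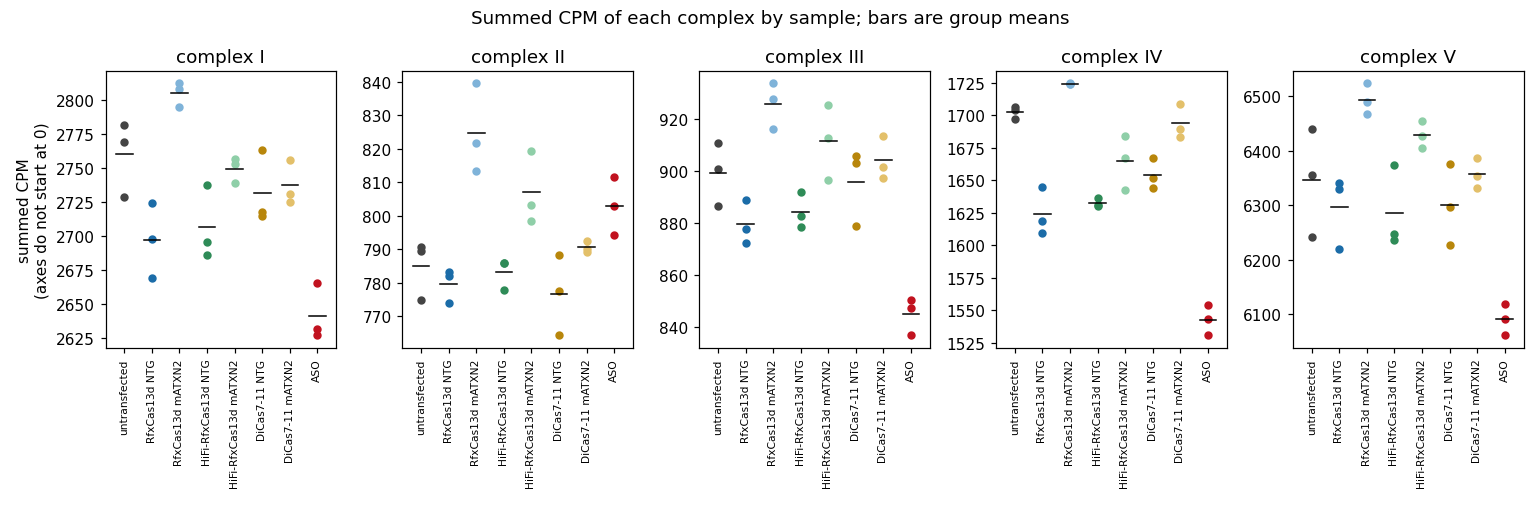
Points are the summed CPM of all kept subunit genes of a complex in each sample, by group, and bars are the means of 3 samples; the vertical axes differ and do not start at 0. ASO cells are lowest for complexes I, III, IV and V, and the RfxCas13d mATXN2 group has the highest mean for every complex.

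The NTG arms were compared with untransfected cells to see how the transfected control arms differed in subunit mRNA. Changes were small, and most of those called were falls. In edgeR's quasi-likelihood test (p-values adjusted over 13901 genes by Benjamini-Hochberg), 9 subunit genes were lower and 1 was higher with RfxCas13d NTG, 13 lower and 5 higher with HiFi-RfxCas13d NTG, and 14 lower and 6 higher with DiCas7-11 NTG. Over all genes tested, 5.66% were called lower and 5.60% higher with RfxCas13d NTG, 10.6% and 10.3% with HiFi-RfxCas13d NTG, and 10.8% and 11.1% with DiCas7-11 NTG; the shares of subunit genes called lower were 10.8%, 15.7% and 16.9%. Median log2 fold changes were -0.05, -0.04 and -0.02 over the subunit genes and -0.0046, -0.0054 and -0.0062 over all genes. Of the 83 genes, 59, 60 and 48 lay below 0, where 51.2%, 51.3% and 51.4% of all genes did. By complex, 4, 4 and 5 of 37 genes fell in complex I, 3, 4 and 5 of 17 in complex IV, 1, 2 and 2 of 17 in complex V, 0, 2 and 1 of 8 in complex III, and 1 of 4 in complex II each time. The 3 comparisons share the untransfected samples.

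Leaving out single libraries changed these counts. The 10 calls for RfxCas13d NTG became 4, all lower, without NTG replicate 1 and 6 (4 lower, 2 higher) without untransfected replicate 2. Those for HiFi-RfxCas13d NTG went from 18 to 10 without NTG replicate 1 and 11 without NTG replicate 3, and without untransfected replicate 2 they were 7 lower and 7 higher. For DiCas7-11 NTG, the 20 calls became 12 without NTG replicate 2, a library of the group with the widest spread, and 10 when only the 6 samples compared were fitted. With library totals in place of TMM scaling, 10 genes were lower and 8 higher with DiCas7-11 NTG (10.1% and 12.3% of all genes). After correction for coding length, described with the ASO below, the split was 6 lower and 3 higher, 10 and 8, and 11 and 11 of 81 genes. With transcript length in its place it was 4 and 6, 7 and 11, and 10 and 13, and 3, 7 and 10 of the falls kept their calls with both corrections.

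In complex I, 3 accessory genes fell in every NTG arm. Ndufv3, an accessory subunit beside the NADH-binding flavoprotein, was at 68.8, 69.0 and 69.5 CPM in the untransfected samples. It was at 56.7, 58.1 and 61.5 CPM with RfxCas13d NTG, 57.7, 59.8 and 56.8 with HiFi-RfxCas13d NTG and 64.5, 50.9 and 57.8 with DiCas7-11 NTG. All 9 NTG samples were below the untransfected samples, with log2 fold changes of -0.23 (standard error 0.059, adjusted p = 0.0106), -0.25 (standard error 0.059, adjusted p = 0.00307) and -0.26 (standard error 0.060, adjusted p = 0.00181). Ndufa6, a member of the LYR family that binds an acyl carrier protein, went from 68.5, 67.1 and 69.4 CPM to 60.9, 59.9 and 61.2, 63.2, 58.1 and 57.4 and 59.7, 62.4 and 61.1 in the same order of arms. Its groups did not overlap either, and its log2 fold changes were -0.17 (adjusted p = 0.0176), -0.20 (adjusted p = 0.00296) and -0.16 (adjusted p = 0.0148). Ndufb2, of the membrane arm, is less abundant, with 21.7, 22.5 and 21.7 CPM in untransfected cells and 17.0, 20.3 and 18.0, 17.2, 19.0 and 19.9 and 20.1, 16.9 and 18.7 in the NTG arms. Its falls of -0.25 (adjusted p = 0.0237), -0.23 (adjusted p = 0.0213) and -0.25 (adjusted p = 0.0150) were lost in 6, 3 and 3 of the 19 alternative settings.

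Ndufs1, the largest subunit of complex I and a carrier of iron-sulfur clusters, was the only subunit gene called higher in all 3 NTG comparisons. Its levels were 202, 209 and 206 CPM in untransfected cells, 224, 222 and 214 with RfxCas13d NTG, 217, 223 and 218 with HiFi-RfxCas13d NTG and 218, 228 and 225 with DiCas7-11 NTG. Each NTG sample was above every untransfected sample, by 0.10 (adjusted p = 0.0192), 0.09 (adjusted p = 0.0170) and 0.12 (adjusted p = 0.00162) on the log2 scale. The flavoprotein Ndufv1 and the iron-sulfur subunits Ndufv2, Ndufs3, Ndufs7 and Ndufs8 were not called in these comparisons, with differences between -0.09 and 0.02.

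The 4 genes of complex II did not move together. Sdhb, the iron-sulfur subunit, fell from 276, 278 and 285 CPM to 260, 265 and 267 with RfxCas13d NTG and 259, 261 and 249 with HiFi-RfxCas13d NTG, with log2 fold changes of -0.08 (standard error 0.025, adjusted p = 0.0296) and -0.12 (standard error 0.025, adjusted p = 6.76e-04). The call with RfxCas13d NTG was lost in 7 of 19 alternative settings (adjusted p up to 0.158), and that with HiFi-RfxCas13d NTG was kept in all 19. With DiCas7-11 NTG it stood at 271, 260 and 268 CPM, -0.07 (adjusted p = 0.0506), which misses the threshold although the samples do not overlap. Sdha, the flavoprotein that oxidizes succinate, was higher with HiFi-RfxCas13d NTG, 0.07 (adjusted p = 0.0482), and DiCas7-11 NTG, 0.09 (adjusted p = 0.0102). Of the membrane anchors, Sdhd rose with HiFi-RfxCas13d NTG, 0.10 (adjusted p = 0.0236). Sdhc fell with DiCas7-11 alone, to 134, 126 and 135 CPM from 151, 149 and 151, a difference of -0.19 (standard error 0.032, adjusted p = 7.42e-05) on the log2 scale. With RfxCas13d NTG and HiFi-RfxCas13d NTG it overlapped untransfected cells, and the DiCas7-11 NTG arm was lower than both in direct tests, with log2 fold changes of -0.15 (adjusted p = 0.00554) and -0.20 (adjusted p = 7.82e-04).

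In complex III, the Rieske iron-sulfur subunit Uqcrfs1 fell with HiFi-RfxCas13d NTG and DiCas7-11 NTG. From 124, 127 and 127 CPM it went to 113, 113 and 110 and 118, 105 and 113, with log2 fold changes of -0.17 (standard error 0.039, adjusted p = 0.00220) and -0.17 (standard error 0.039, adjusted p = 0.00205). With RfxCas13d NTG the samples at 114, 119 and 120 CPM were also below every untransfected sample, but the difference of -0.10 (adjusted p = 0.104) was not called. Uqcrb, a small subunit near the ubiquinone site, rose with both arms in which Uqcrfs1 fell, by 0.14 (adjusted p = 0.00502) and 0.15 (adjusted p = 0.00243). The core proteins Uqcrc1 and Uqcrc2 were not called, with differences from -0.06 to 0.03.

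In complex IV, Cox6a1 and Cox7a2l fell in every NTG arm. Cox7a2l, known for joining complexes III and IV into supercomplexes, was at 152, 152 and 152 CPM in untransfected cells. The arms had 141, 142 and 134 CPM with RfxCas13d NTG, 138, 137 and 145 with HiFi-RfxCas13d NTG and 138, 138 and 132 with DiCas7-11 NTG, and no NTG sample reached the untransfected level. Log2 fold changes were -0.13 (adjusted p = 0.0143), -0.12 (adjusted p = 0.0181) and -0.16 (adjusted p = 0.00139). The calls were lost in 3 and 5 of 19 alternative settings with RfxCas13d NTG and HiFi-RfxCas13d NTG, and kept in all 19 with DiCas7-11 NTG. Cox6a1, a regulatory subunit, fell, with log2 fold changes of -0.20 (adjusted p = 0.0265), -0.21 (adjusted p = 0.00993) and -0.16 (adjusted p = 0.0480). With DiCas7-11 NTG (89.5, 74.6 and 78.8 CPM against 92.8, 92.2 and 85.2) the groups overlapped and the call was lost in 12 of 19 alternative settings. The Cox6a1 call was lost in 6 of 19 with RfxCas13d NTG and in 2 of 19 with HiFi-RfxCas13d NTG. Cox8a, the ubiquitous form of a small subunit, fell with RfxCas13d NTG, -0.21 (adjusted p = 0.00334), and HiFi-RfxCas13d NTG, -0.20 (adjusted p = 0.00183), and stood at -0.07 (adjusted p = 0.318) with DiCas7-11 NTG. Cox6b1 rose with DiCas7-11 NTG, 0.10 (adjusted p = 0.0140). Cox4i1, Cox5a and Cox5b were not called in the NTG arms, with differences between -0.06 and -0.0033.

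In complex V, Atp5d, the delta subunit of the central stalk, fell in all 3 NTG arms and kept its call in every alternative setting. Its levels were 137, 141 and 140 CPM in untransfected cells, 119, 126 and 123 with RfxCas13d NTG, 119, 124 and 118 with HiFi-RfxCas13d NTG and 135, 119 and 114 with DiCas7-11 NTG. No NTG sample reached the untransfected range, although DiCas7-11 NTG replicate 1 came close, and the log2 fold changes were -0.19 (standard error 0.044, adjusted p = 0.00585), -0.21 (standard error 0.044, adjusted p = 8.71e-04) and -0.19 (standard error 0.044, adjusted p = 0.00226). The peripheral stalk subunit Atp5pb rose with HiFi-RfxCas13d NTG, 0.10 (adjusted p = 0.0115), and DiCas7-11 NTG, 0.10 (adjusted p = 0.0129). Among the 3 genes for the c subunit, whose mature proteins are identical, Atp5g2 fell in the same arms, with log2 fold changes of -0.11 (adjusted p = 0.0312) and -0.11 (adjusted p = 0.0347), and Atp5g1 and Atp5g3 were not called. The F1 genes Atp5a1, Atp5b and Atp5c1 were not called, with differences between -0.04 and 0.0047.

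**Figure D3:**
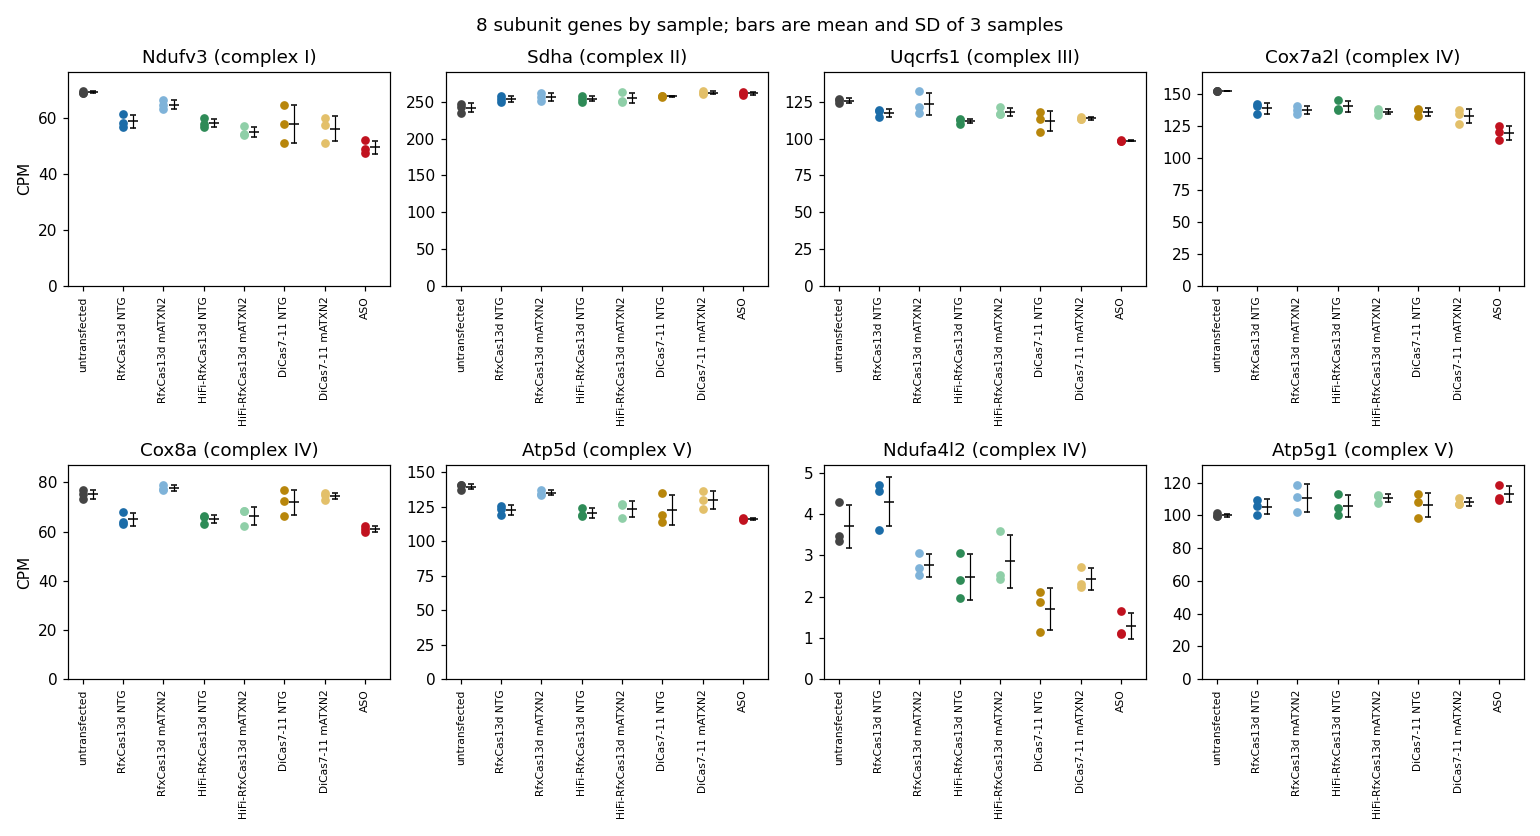
CPM of 8 subunit genes in every sample, by group, with the mean and SD of 3 samples beside the points; axes start at 0. Ndufv3, Cox7a2l and Atp5d are lower in all NTG arms and in ASO cells than in untransfected cells, Uqcrfs1 is lowest with the ASO, and Ndufa4l2 ranges from 1.09 to 4.72 CPM.

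The isoforms Ndufa4l2 and Cox4i2 had the largest differences between the NTG arms. Ndufa4l2 was at 4.30, 3.48 and 3.34 CPM in untransfected cells, 4.57, 3.62 and 4.72 with RfxCas13d NTG, 2.39, 1.96 and 3.06 with HiFi-RfxCas13d NTG and 2.12, 1.13 and 1.87 with DiCas7-11 NTG, and was called lower with DiCas7-11 alone, -1.14 (adjusted p = 6.60e-04). The direct difference between the DiCas7-11 and RfxCas13d NTG arms was -1.35 (adjusted p = 5.84e-04), and that between the DiCas7-11 and HiFi-RfxCas13d NTG arms, -0.55 (adjusted p = 0.367), was not called. Cox4i2 was called in no NTG arm against untransfected cells, yet differed, with a log2 fold change of -1.29 between these arms (adjusted p = 0.0242). It had 9 to 21 counts per sample with DiCas7-11 NTG and 26 to 47 with RfxCas13d NTG, and the call was lost without RfxCas13d NTG replicates 2 or 3 or without DiCas7-11 NTG replicates 2 or 3. With Sdhc, these were the 3 subunit genes called between the DiCas7-11 and RfxCas13d NTG arms (3.39% of all genes were). They became 5 without DiCas7-11 NTG replicate 1 and 1, Ndufa4l2, when only the 6 samples compared were fitted, and DESeq2 called Sdhc alone. DESeq2 can leave a gene with few counts without an adjusted p, so Ndufa4l2 and Cox4i2 may not have been tested there. Between the HiFi-RfxCas13d and RfxCas13d NTG arms, 0 subunit genes were called by edgeR (0.619% of all genes were; 5 of the 83 had an unadjusted p under 0.05), and between DiCas7-11 and HiFi-RfxCas13d NTG only Sdhc was (0.705% of all), joined by Uqcrh without DiCas7-11 NTG replicate 1 and by Cox8a without replicate 2.

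ASO cells were compared with untransfected cells, neither of which received an effector protein. No group received a control oligonucleotide, so lowered ataxin-2 mRNA and exposure to an oligonucleotide or its delivery cannot be told apart. In edgeR's test, 39 of the 83 genes fell and 3 rose, where 21.7% of all genes were called lower and 21.0% higher. The median log2 fold change was -0.09 for the subunit genes and -0.0021 for all genes, 47 of 83 had all 3 ASO samples below all 3 untransfected samples (all genes: 26.1%), and 60 of 83 lay below 0 (all genes: 50.3%). ASO cells had the lowest mean of the 8 groups for 46 of 83, a count that was not made over all genes. Falls were spread over complex I (11 of 37), complex III (5 of 8), complex IV (11 of 17) and complex V (11 of 17), while in complex II Sdha and Sdhd rose and Sdhb fell. The excess of falls depended on how gene length was taken into account. Among short and among longer genes, subunit genes were still called lower more often than all genes, as given below. After a correction for coding length, 18 of 81 genes were lower (22.2%) and 15 higher, against 21.9% and 22.9% of 12202 genes, with a median of -0.02. Single genes stood apart from the trend with length: 16 of the 39 falls and all 3 rises kept their calls with both a coding length and a transcript length correction.

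Subunit genes are short. Their median coding length was 408 bases, against 1392 for all tested genes that have a length, which were 81 of 83 members and 87.8% of the 13901. Across the 81 members, Spearman's rho between coding length and the ASO log2 fold change was 0.55, and across 12202 genes it was 0.14; genes are not independent replicates, and all points share the same 6 libraries. Under 500 bases, 27 of 51 subunit genes were lower (52.9%), as were 33.2% of the 1061 genes of all kinds of that size. At 500 bases or more, 10 of 30 subunit genes were lower (33.3%), with a median of -0.0036, against 22.8% of all genes. Each library's trend on length was removed with a lowess curve and the genes were tested with limma-trend, which without the correction called 38 of the 81 lower and 3 higher. The correction removes whatever follows length, and a change in the cells and a bias of the libraries that both follow length cannot be told apart. ASO libraries were also the deepest. With library totals in place of TMM scaling, 29 genes were lower and 11 higher (17.5% and 26.9% of all genes), and all genes moved up by a median of 0.0408.

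**Figure D4:**
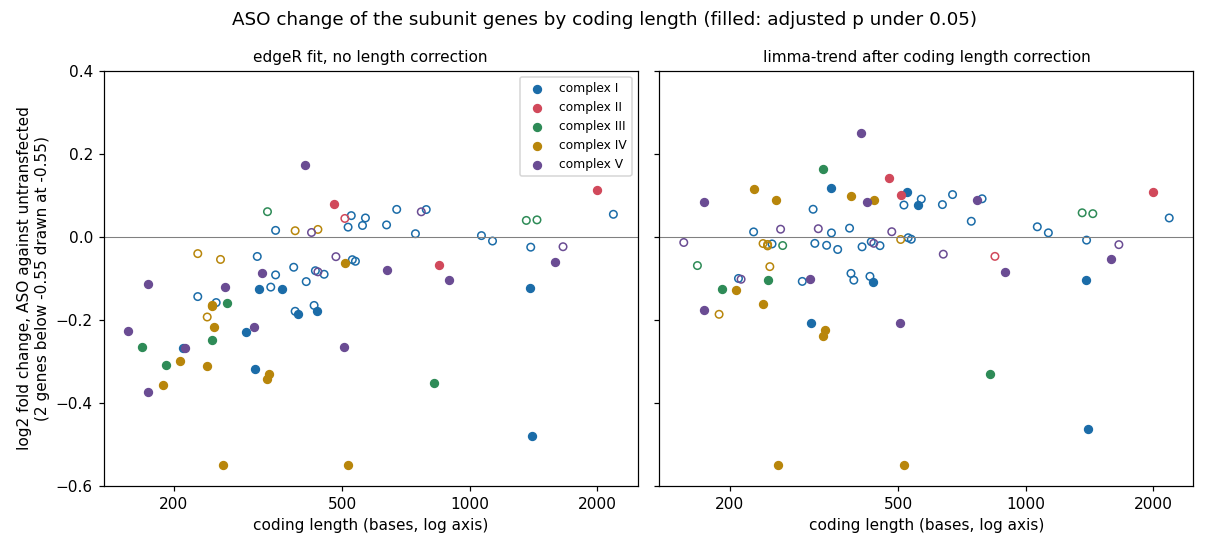
Log2 fold change of each subunit gene with the ASO against its coding length on a log axis, before correction at left and after coding length correction at right; filled points have an adjusted p under 0.05, and Ndufa4l2 and Cox4i2 are drawn at the lower edge. At left most genes under 500 bases lie below 0, and at right filled points lie on both sides of 0, with Ndufv3 and Uqcrfs1 low in both panels.

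In complex I, 10 of 30 accessory genes fell. Ndufv3 had the largest fall at 52.1, 48.9 and 47.6 CPM, against 68.8, 69.0 and 69.5 in untransfected cells, or -0.48 (standard error 0.058, adjusted p = 1.06e-07). Its coding length of 1404 bases is among the longest of the set, and after coding length correction it remained at -0.46 (adjusted p = 1.16e-07 in limma-trend). Ndufs1, called higher in the NTG arms, was at 0.05 (adjusted p = 0.106) here. Ndufs3, Ndufs7, Ndufs8, Ndufv1 and Ndufv2 lay between -0.02 and 0.07 and were not called. Ndufb4c (lower) and Ndufb4 (not called) are near-identical copies between which reads may be split, so each is uncertain.

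Complex II was the one complex with a median above 0, at 0.06. Sdha was at 262, 260 and 264 CPM against 235, 248 and 244, with no overlap, a rise of 0.11 (standard error 0.025, adjusted p = 4.78e-04). Sdhd rose by 0.08 (adjusted p = 0.0382) and Sdhc was at 0.04 (adjusted p = 0.248), although both are about as short as genes of other complexes that fell, at 477 and 507 coding bases. After coding length correction Sdhc was called higher as well, at 0.10 (adjusted p = 0.00801 in limma-trend). The fall of Sdhb, -0.07 (adjusted p = 0.0244), was lost in 10 of 19 alternative settings.

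Uqcrfs1 had the largest fall of complex III. ASO samples had 98.3, 98.3 and 98.9 CPM, below every sample of every other group, and untransfected cells had 124, 127 and 127. This is -0.35 (adjusted p = 1.19e-08) on the log2 scale, and -0.33 after coding length correction. The 4 small accessory genes, Uqcr10, Uqcr11, Uqcrh and Uqcrq, were also lower; Uqcr10, at 53.5, 49.7 and 50.6 CPM against 59.3, 65.3 and 66.2, fell, with a log2 fold change of -0.31 (adjusted p = 2.55e-06) and kept its call with both length corrections. Uqcrb, Uqcrc1 and Uqcrc2 were at 0.06, 0.04 and 0.04 and were not called.

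In complex IV, 8 of 12 ubiquitous accessory genes and 3 of 5 tissue isoforms fell. Cox7a2l was at 125, 120 and 114 CPM against 152, 152 and 152, or -0.34 (standard error 0.035, adjusted p = 3.57e-09). Cox6a1 fell to 74.6, 73.7 and 66.9 CPM from 92.8, 92.2 and 85.2, with a log2 fold change of -0.33 (adjusted p = 2.49e-05), and Cox8a to 61.0, 62.3 and 59.9 from 73.1, 75.5 and 76.9, with a log2 fold change of -0.30 (adjusted p = 3.26e-06). None of these 3 genes overlapped untransfected cells, and all 3 kept their calls with both length corrections. Cox4i1 had a small fall, -0.06 (adjusted p = 0.0250), that was not called after either correction, and Cox5a and Cox5b were at 0.02 and 0.01. Ndufa4l2 had the largest fall of all members, to 1.65, 1.09 and 1.12 CPM (25 to 38 counts) from 4.30, 3.48 and 3.34 (42 to 67 counts), or -1.52 (standard error 0.23, adjusted p = 2.98e-06). Cox4i2 fell, with a log2 fold change of -1.39 (adjusted p = 0.00159), on 6 to 18 counts per ASO sample. Cox6a2, at 16 to 26 counts with the ASO and 2 to 15 in untransfected cells, and Cox7a1 were not called.

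Within complex V, 4 of 5 genes of the F1 head and all 5 small membrane subunits fell, and no gene of the c ring was called lower. Atp5d was at 117, 116 and 116 CPM against 137, 141 and 140, or -0.26 (standard error 0.043, adjusted p = 1.10e-05). Atp5c1, the gamma subunit of the rotor, and Atp5b had smaller falls of -0.11 (adjusted p = 2.21e-04) and -0.06 (adjusted p = 0.00782), and Atp5a1, the alpha subunit, was at -0.02 (adjusted p = 0.356). Atp5mpl, a small proteolipid of the membrane part, had the largest fall, to 43.0, 40.4 and 42.7 CPM from 53.0, 55.2 and 55.3, or -0.37 (standard error 0.054, adjusted p = 2.04e-06). Atp5g1 rose to 111, 118 and 110 CPM from 99.5, 99.8 and 101, with no overlap, by 0.17 (standard error 0.050, adjusted p = 0.00527). Atp5g2 and Atp5g3 were at -0.08 (adjusted p = 0.0566) and 0.01 (adjusted p = 0.799), and the share of Atp5g1 in the summed CPM of the 3 genes was 16.5% ± 0.593 with the ASO and 14.7% ± 0.271 in untransfected cells (SD, n = 3). Atp5md turned from lower to higher with coding length correction, the only gene for which a call changed direction.

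Falls with the ASO were set beside those of the NTG arms, which share the untransfected control. Of the 6 genes lower in all 3 NTG arms, 5 were lower with the ASO, all but Ndufb2 (21.7, 22.5 and 21.7 CPM in untransfected cells, 20.5, 22.3 and 21.0 with the ASO). Of the 39 genes lower with the ASO, 25 were lower in no NTG arm. These overlaps were not counted over all genes, so they cannot be told from those of genes in general. Against the NTG arms themselves, the ASO samples had 27 genes lower and 5 higher for RfxCas13d (17.3% and 15.2% of all genes), 25 and 2 for HiFi-RfxCas13d (15.9% and 13.7%), and 32 and 3 for DiCas7-11 (17.7% and 15.0%). These comparisons share the ASO samples. After coding length correction they gave 14 lower and 14 higher, 12 and 9, and 12 and 7 of 81 genes. The shares lower were 17.3%, 14.8% and 14.8%, against 17.7%, 15.9% and 17.8% of all genes. Of all genes, 15.2%, 12.6% and 14.85% were called higher.

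**Figure D5:**
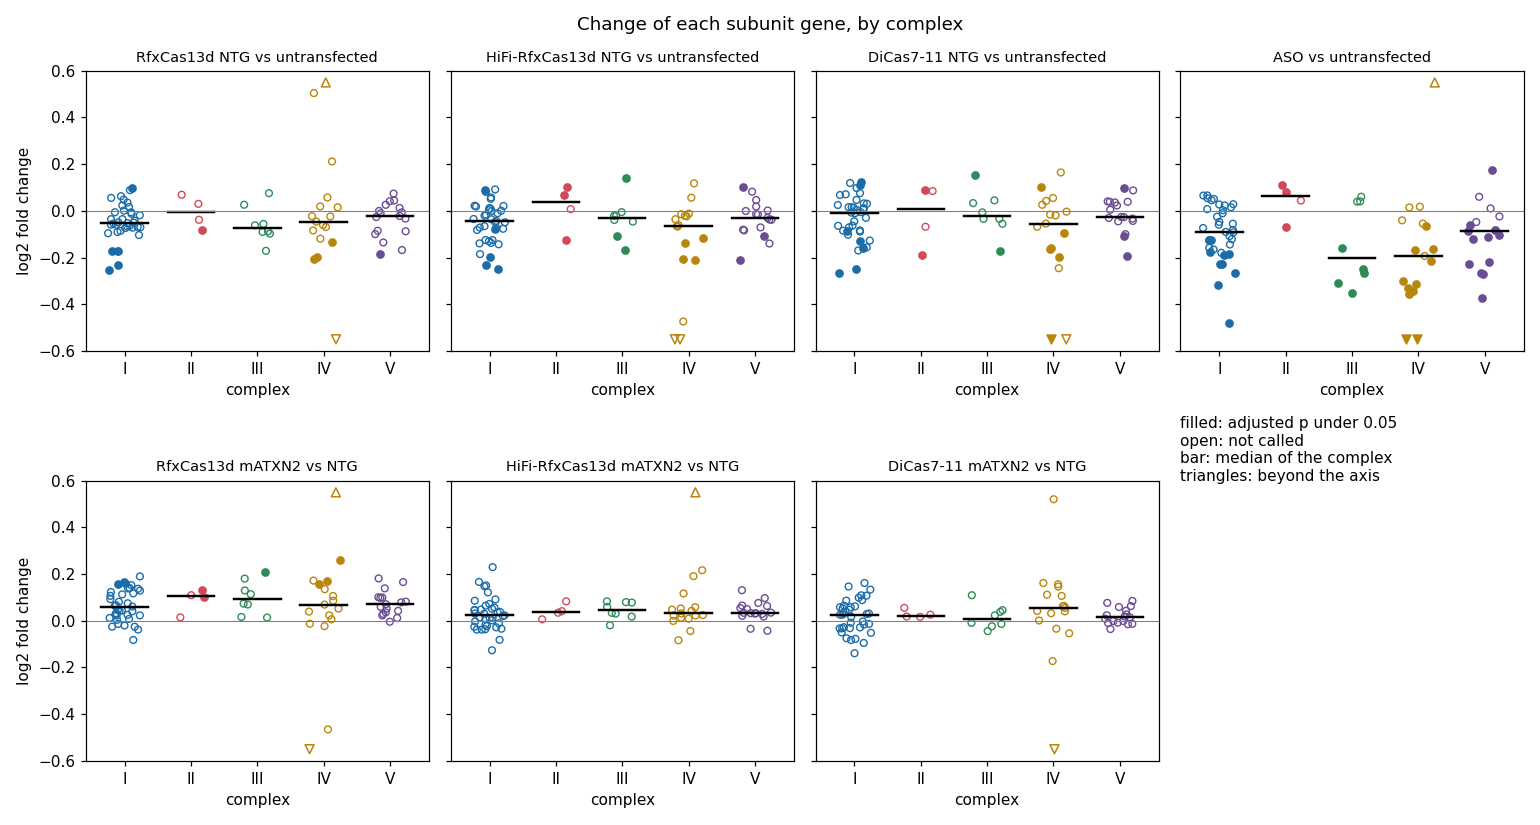
Log2 fold change of each subunit gene in 7 comparisons, by complex; filled points have an adjusted p under 0.05, bars are medians, and triangles stand for genes beyond 0.55 in either direction. The ASO panel has most filled points, nearly all below 0, and the mATXN2 panels have filled points for RfxCas13d only.

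The mATXN2 crRNA was compared with NTG within each effector. With RfxCas13d, 8 subunit genes rose and 0 fell (0.914% and 0.475% of all genes), the median was 0.07, and 72 of 83 lay above 0 (50.5% of all genes). With HiFi-RfxCas13d and DiCas7-11, edgeR called 0 (0.295% and 0.942% of all genes), with 10 and 14 at an unadjusted p under 0.05; DESeq2 called 0 and 1, the accessory gene Ndufa12 of complex I (-0.14, adjusted p = 0.0425 in DESeq2). Leaving out 1 library gave Atp5md for HiFi-RfxCas13d (without mATXN2 replicate 1) and Cox5b, Atp5d and Ndufa12 for DiCas7-11 (without NTG replicate 1). Medians were 0.03 for both, and 65 and 52 of 83 genes lay above 0 (49.3% and 49.5% of all). The rise with RfxCas13d was not shown to differ from the others. Tested as an interaction, edgeR called 0 subunit genes between HiFi-RfxCas13d and RfxCas13d (9 at an unadjusted p under 0.05). It called 0 between DiCas7-11 and RfxCas13d (15 at that p). Over all genes it also called 0 in both tests, with 855 and 1084 genes at that p. The 0 calls are therefore not particular to the subunit genes.

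Cox8a had the largest of the 8 rises, from 63.1, 63.8 and 67.9 CPM with NTG to 76.8, 79.1 and 77.5 with mATXN2, or 0.26 (standard error 0.046, adjusted p = 0.00232). It was the only one called in all 19 alternative settings, and untransfected cells had 73.1, 75.5 and 76.9 CPM. Uqcr10 of complex III went from 58.3, 60.4 and 60.4 to 67.6, 66.6 and 73.4 CPM, by 0.21 (standard error 0.046, adjusted p = 0.0159). Sdhb and Sdhd of complex II rose by 0.10 (adjusted p = 0.0284) and 0.13 (adjusted p = 0.0260), Cox5b and Cox7b of complex IV by 0.16 (adjusted p = 0.0172) and 0.17 (adjusted p = 0.0356), and Ndufb9 and the core gene Ndufs3 of complex I by 0.16 (adjusted p = 0.00963) and 0.17 (adjusted p = 0.0480). For each of the 8, the 3 mATXN2 samples were above the 3 NTG samples, as they were for 42 of 83 genes in all (10.3% of all genes). The number of calls rested on single libraries: leaving out NTG replicates 1, 2 and 3 in turn gave 1, 5 and 3 calls, and leaving out mATXN2 replicates 1, 2 and 3 gave 5, 3 and 2. It was 3 of 81 after coding length correction, with a median of 0.04, and 2 after transcript length correction (0.590% and 0.779% of all genes were then higher). It was 13 with no filter and 23, of which 22 were higher and 1 lower, with adjustment over 10 comparisons (1.04% and 2.68% of all genes were higher). Against untransfected cells, the mATXN2 arms had 4 genes higher and 1 lower with RfxCas13d (5.98% and 6.03% of all genes), 8 and 6 with HiFi-RfxCas13d (11.3% and 10.9%), and 7 and 9 with DiCas7-11 (12.5% and 12.8%). The 5 calls for RfxCas13d were 3 without untransfected replicates 1 or 3 or mATXN2 replicates 2 or 3, and the 14 for HiFi-RfxCas13d were 7 without untransfected replicate 1 and 8 without mATXN2 replicate 2.

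Genes that work with the subunits were read from lists. Of 2 subunits that the symbol rule leaves out, Ndufab1, the mitochondrial acyl carrier protein, was called higher with the mATXN2 crRNA of RfxCas13d, 0.20 (adjusted p = 0.0102), and Cyc1, cytochrome c1, with that of DiCas7-11, 0.15 (adjusted p = 0.0217). Cycs, the carrier cytochrome c, fell with the ASO from 375, 398 and 404 CPM to 342, 350 and 348, with a log2 fold change of -0.18 (adjusted p = 5.43e-05), and rose with HiFi-RfxCas13d NTG, 0.12 (adjusted p = 0.00929). Atpif1, the inhibitor of ATP hydrolysis by complex V, fell with the ASO from 83.1, 79.9 and 89.0 CPM to 65.1, 68.5 and 66.3, with a log2 fold change of -0.33 (adjusted p = 6.61e-07), and with RfxCas13d NTG, -0.16 (adjusted p = 0.0185).

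Of 53 assembly factors, which build the complexes and are not part of them, 9 rose and 10 fell with the ASO, with a median of -0.04; the background is that of the same comparison given above. The largest rise was that of Cox11, which delivers copper to complex IV, 0.38 (adjusted p = 7.43e-05), and the largest fall that of Cox14, -0.51 (adjusted p = 2.62e-06). In the NTG arms 2, 5 and 6 of the 53 rose and 5, 2 and 2 fell for RfxCas13d, HiFi-RfxCas13d and DiCas7-11; Cox10, an enzyme of heme A synthesis, rose by 0.26 (adjusted p = 7.66e-04), 0.26 (adjusted p = 2.73e-04) and 0.25 (adjusted p = 5.17e-04). Of 13 regulators of mitochondrial biogenesis and mtDNA expression, 5 rose with the ASO and Gabpa, a subunit of the ETS factor GABP, fell, with a log2 fold change of -0.14 (adjusted p = 0.0110). Pprc1, a coactivator related to PGC-1alpha, rose by 0.35 (adjusted p = 7.42e-10) with the ASO and by 0.11 (adjusted p = 0.0257), 0.22 (adjusted p = 1.89e-05) and 0.21 (adjusted p = 3.42e-05) in the 3 NTG arms. The transcription factor Nrf1 and the mtDNA packaging factor Tfam were called in none of the 7 comparisons, and Ppargc1a did not pass the filter. With the mATXN2 crRNA, 0 assembly factors were called by edgeR, and of the regulators Pprc1 rose with DiCas7-11, 0.15 (adjusted p = 0.0197).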

How the data were processed

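Libraries were made with a stranded mRNA kit and sequenced single-end. The authors quantified reads with Salmon 1.5.2 against GRCm39, corrected for sequence and GC bias, and summarized them with tximport to length-scaled expected counts per gene, the deposited unit; counts were rounded here. The 13901 genes that reached 0.5 CPM in 3 or more samples were fitted over all 24 samples with edgeR 4.0.16 (TMM scaling, quasi-likelihood test; R 4.3.3), with Benjamini-Hochberg adjustment within a comparison and a threshold of 0.05. Printed CPM are TMM-scaled, and fold changes are log2. Alternatives used limma 3.58.1 (trend, prior count 3, the study's method), DESeq2 1.42.0 and length corrections (lowess, span 0.3); transcript length was added after the results were seen. Lengths came from a GRCm38 annotation. The study calls its samples biologically independent, while the labels do not say how the 3 samples of a group were separated.

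Named genes were the core subunits, paralog sets, the called gene with the largest rise and fall per complex and comparison, and those called in all 3 NTG comparisons; Ndufb9, Cox7b, Uqcr11, Uqcrh, Uqcrq, Ndufb4, Ndufb4c, Ndufa12 and Atp5md fall outside that rule and were named after their values were seen. Members and lists were chosen with earlier results of these data known. Replicate numbers did not pair samples (correlations of deviations between -0.0629 and 0.0481). The statistics were tested on simulated counts. Some genes are counted in the totals but are not reported here by name.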

Additional observations from a re-analysis of the deposited data

Results flagged for a closer look

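Between the control arms, 3 subunit genes differed in direct edgeR tests. Ndufa4l2 was lower with DiCas7-11 NTG than with RfxCas13d NTG by a log2 difference of -1.35 (adjusted p = 5.84e-04). DESeq2 did not call it, but can leave a gene with few counts without an adjusted p, so it may not have been tested there. Cox4i2 differed between the same arms by -1.29 (adjusted p = 0.0242), on 9 to 21 against 26 to 47 counts per sample. Sdhc was lower with DiCas7-11 NTG than with RfxCas13d NTG by -0.15 (adjusted p = 0.00554) and than with HiFi-RfxCas13d NTG by -0.20 (adjusted p = 7.82e-04). The DiCas7-11 NTG samples differed from each other by 3.16 to 5.22 times counting noise, and the part of that spread in these differences was not tested.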

How the results depend on the processing

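Of 46 named gene results, none changed direction, 23 kept their call in all their alternatives, and 106 of 874 values lost it. Among the other genes, Atp5md turned from lower to higher with the ASO under coding length correction. The median of the subunit genes changed sign for DiCas7-11 NTG, from -0.02 to 0.0065 with coding length and 0.014 with transcript length correction, and for HiFi-RfxCas13d NTG, from -0.04 to 0.0014 with transcript length correction, under which calls for RfxCas13d NTG were 4 lower and 6 higher. With coding length correction it also changed sign for the ASO against RfxCas13d NTG, from -0.06 to 0.012, and against HiFi-RfxCas13d NTG, from -0.05 to 0.0052. Against DiCas7-11 NTG it stayed below 0, at -0.02. For RfxCas13d mATXN2 against NTG, the 8 calls became 13 with no filter, 23 with adjustment over 10 comparisons, 3 with coding length correction, 4 with that correction and the replicate block, and 2 with transcript length correction, and 1 to 5 without single libraries. For HiFi-RfxCas13d the 0 calls became 6 with adjustment over 10 comparisons and 0 to 1 without single libraries, and for DiCas7-11 they became 1 in DESeq2, 2 with adjustment over 10 comparisons and 0 to 3 without single libraries. Against untransfected cells, DiCas7-11 NTG had 10 calls when only the groups compared were fitted, and leaving out single libraries gave 4 to 10 for RfxCas13d NTG, 10 to 17 for HiFi-RfxCas13d NTG, 12 to 24 for DiCas7-11 NTG and 35 to 40 for the ASO. The cause was not tested. The samples share only a replicate number; with the replicate block, calls were 10, 19 and 22 for the 3 NTG arms, 43 for the ASO and 9, 0 and 0 for mATXN2 against NTG. Over all genes, calls for mATXN2 against NTG went from 193, 41 and 131 to 434, 201 and 366 with no filter, 665, 275 and 643 with adjustment over 10 comparisons, and 355, 91 and 1 with only the groups compared; DiCas7-11 NTG went from 3044 to 1800. With 6 to 47 counts for Cox4i2 and 2 to 26 for Cox6a2, depth limits these genes, and 3 samples a group limit all.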
